A study of Mus musculus with 8 samples.

Results

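What a TGFb inhibitor and a Wnt inhibitor had in common in fibroblasts undergoing cardiac reprogramming was examined on 4 arrays of 1 fibroblast set. The members are the cultures labelled TTFs-2, 4 of the 8 cultures of the series. They were chosen by their labels alone: GHMT with the TGFb inhibitor and GHMT with the Wnt inhibitor formed one arm, and GHMT alone and GHMT with the EP4 antagonist formed the other, 2 arrays against 2. All 8 cultures were mouse postnatal tail-tip fibroblasts transduced by retrovirus with Gata4, Hand2, Mef2c and Tbx5 (GHMT), transcription factors that together can turn fibroblasts towards a cardiac muscle fate. The compound, or DMSO as vehicle, was added with the viruses. The other 4 cultures, TTFs-1, received GHMT alone, diclofenac (a cyclooxygenase inhibitor), the EP4 antagonist, or diclofenac plus PGE2 (prostaglandin E2), and none received a TGFb or Wnt inhibitor. The labels give no name or dose for either inhibitor, no mouse strain and no harvest time.

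TGFb signals through receptor kinases to SMAD proteins and drives fibroblasts towards contractile, collagen-producing myofibroblasts. Wnt ligands act through Frizzled receptors, and in the canonical branch through beta-catenin and the TCF/LEF factors. EP4 is a receptor for PGE2 that raises cAMP. Interferons induce a large antiviral programme, and the question here was which genes both inhibitor arrays shared beyond that programme. The compared values are log2 expression values, so a difference of 1 is 2-fold.

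Both inhibitor arrays stood above both other arrays in interferon-induced genes, in a few genes on no interferon list, among them Sfrp2, Lpl and Gpnmb, and in the Id genes. They stood below both others in most genes of mitosis and DNA replication, in several smooth muscle genes and in Ptgs2. By limma with Benjamini-Hochberg adjustment over 22206 transcript clusters (the array's units of about 1 gene each), 43 passed an adjusted p of 0.05 (0.194%): 42 rose (0.189%) and 1, an unnamed cluster, fell (0.0045%). Of these, 30 lay on 3 lists of interferon genes and 13 did not. Of the 13, 8 were unnamed, and the 5 named were Sfrp2, Lpl, Samd9l, Gpnmb and Adgrd1. Lists were matched by gene symbol, so an unnamed cluster could not be on a list and counts as outside. Whether unnamed clusters hold interferon genes was not tested. Each arm pools 2 different treatments of 1 array each, so the spread the test uses includes differences between treatments, and an exact permutation test of a single value in 2 against 2 arrays cannot go below p = 0.333. Leaving out any 1 of the 4 arrays removed all calls: 0 remained, with smallest adjusted p values in limma of 0.482 without GHMT, 0.527 without the EP4 antagonist, 0.142 without the TGFb inhibitor and 0.166 without the Wnt inhibitor, and with 1386, 1109, 1728 and 1936 clusters at an unadjusted p under 0.05.

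A second fit took the spread from all 8 arrays, with the fibroblast set as a block and the 6 arrays without an inhibitor as 1 arm; the differences remain those of the TTFs-2 arrays. It called 161 clusters (0.725%), of which 127 were higher (0.572%) and 34 lower (0.153%), and 41 of the 43 were among them. Of the 161, 102 lay outside the interferon lists, 59 named and higher and 31 named and lower among them. The unnamed ones count as outside here too. Calls from it are given below as calls of the 8-array fit. In 194 clusters (0.874%) the arms were at least 2-fold apart, meaning that the lowest array of the higher arm exceeded the highest array of the lower arm by 1 or more on the log2 scale. Of these 157 were higher (0.707%) and 37 lower (0.167%); 65 of the higher and 0 of the lower were interferon list genes.

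**Figure D1:**
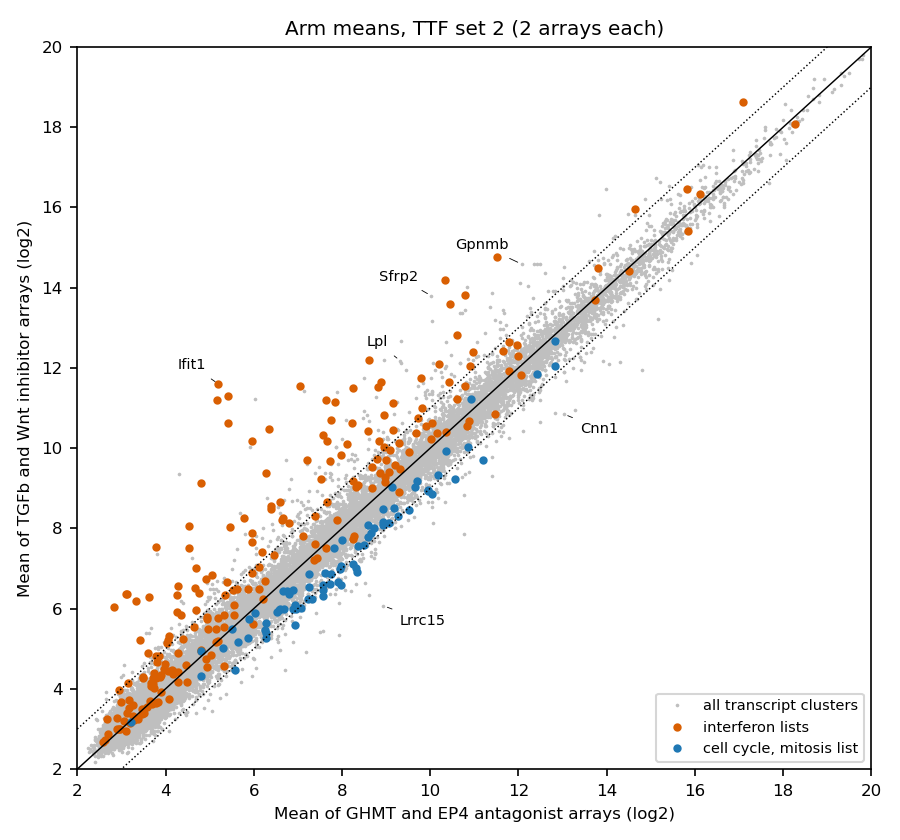
Mean log2 value of the TGFb and Wnt inhibitor arrays against the mean of the GHMT and EP4 antagonist arrays for 22206 transcript clusters (grey), with the 3 interferon lists (orange) and the mitosis list (blue) marked; the solid line is equality and the dotted lines are 2-fold. Interferon genes such as Ifit1 lie far above the line, mitosis genes lie mostly below it, and Sfrp2, Lpl and Gpnmb are higher genes on no interferon list.

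The interferon genes set the scale for the rest. Of 221 measured genes on the 3 lists, 30 rose, 147 had both inhibitor arrays above both others, against 18.2% of all clusters, and 9 had both below, against 20.1%. The median difference was 0.70, against -0.01 over all clusters. Ifit1, an antiviral RNA-binding protein, measured 5.15 with GHMT and 5.26 with the EP4 antagonist, both at background, and 11.58 with the TGFb inhibitor and 11.61 with the Wnt inhibitor. The arms did not overlap, and the rise was at least 53.3-fold (limma adjusted p = 0.000635), counting the lower arm at its arrays' background level. Irf7, the transcription factor that amplifies interferon production, rose at least 40.4-fold, and Stat2, a subunit of the factor that interferon receptors activate, rose by 3.57 ± 0.24 (SE) to 11.95 and 12.43. Ifnb1, the gene of interferon beta, was at background in all 4 arrays, with a highest value of 4.70.

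The promoters of 4 genes are shown for the response element they carry. The interferon-stimulated response element is a promoter site that IRF proteins bind in interferon-induced genes; its core was searched as GAAANNGAA on both strands, from 250 bases before to 50 after the start site. Of 30 interferon list genes that rose, 25 had a promoter in the RefSeq table used (GRCm38.p6), and 16 of the 25 (64.0%) held the core, against 1456 of 15691 promoters of genes on the array (9.28%). Capitals mark the core or its reverse complement, and overlapping matches run together: Ifit1 (chr19:34640639-34640938 on the plus strand) and Isg15 (chr4:156200769-156201068 on the minus strand) hold 3 each, Stat2 (chr10:128270248-128270547 on the plus strand) holds 1, and Samd9l (chr6:3399522-3399821 on the minus strand), which is on none of the lists, holds 1. The examples were chosen after their values were seen.
Ifit1: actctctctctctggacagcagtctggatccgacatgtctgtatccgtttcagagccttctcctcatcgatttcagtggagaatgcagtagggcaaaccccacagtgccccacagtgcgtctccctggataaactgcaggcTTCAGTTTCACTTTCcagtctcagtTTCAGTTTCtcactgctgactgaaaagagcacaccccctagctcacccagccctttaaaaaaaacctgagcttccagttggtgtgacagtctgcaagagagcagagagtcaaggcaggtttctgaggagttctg
Isg15: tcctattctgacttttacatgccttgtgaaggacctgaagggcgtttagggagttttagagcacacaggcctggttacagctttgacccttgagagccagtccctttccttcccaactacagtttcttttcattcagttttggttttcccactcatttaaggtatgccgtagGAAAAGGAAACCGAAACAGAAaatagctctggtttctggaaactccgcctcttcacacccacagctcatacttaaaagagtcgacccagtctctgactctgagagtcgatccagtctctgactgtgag
Stat2: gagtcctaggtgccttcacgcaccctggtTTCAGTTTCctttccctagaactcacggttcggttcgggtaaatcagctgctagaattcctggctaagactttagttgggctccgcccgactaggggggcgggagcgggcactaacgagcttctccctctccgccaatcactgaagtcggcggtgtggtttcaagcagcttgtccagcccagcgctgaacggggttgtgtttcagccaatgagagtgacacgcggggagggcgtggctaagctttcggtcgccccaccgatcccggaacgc
Samd9l: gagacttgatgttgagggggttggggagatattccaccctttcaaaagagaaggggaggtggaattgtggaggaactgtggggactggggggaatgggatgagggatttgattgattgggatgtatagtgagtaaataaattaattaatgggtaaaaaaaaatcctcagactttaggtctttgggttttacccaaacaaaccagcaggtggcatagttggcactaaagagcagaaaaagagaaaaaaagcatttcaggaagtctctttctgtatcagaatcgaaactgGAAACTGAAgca

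Outside the interferon lists, the 20 named genes with the largest upward gap between the arms differed by 1.72 to 5.2 on the log2 scale. Of them 5 rose in the test (against 0.189% of all clusters) and 14 were called by the 8-array fit (against 0.572%). The 20 genes were chosen by the gap on the same arrays, which favours these counts, so they are not a test. Only 2 of the 15 with a promoter in the table held the interferon element core (13.3%), Samd9l and Pcp4l1. Samd9l, a regulator of endosomes known to be induced by interferon although on none of the lists, measured 9.19 and 9.47 with GHMT and the EP4 antagonist, and 11.86 and 12.38 with the TGFb and Wnt inhibitors. Its difference was 2.79 ± 0.26 (limma adjusted p = 0.0228), but it missed the threshold in the 8-array fit (adjusted p = 0.0567). Zc3hav1, an antiviral RNA-binding protein, is also a known interferon-inducible gene on none of the 3 lists and was higher in the 8-array fit, by 1.59, so the lists do not hold every such gene.

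**Figure D2:**
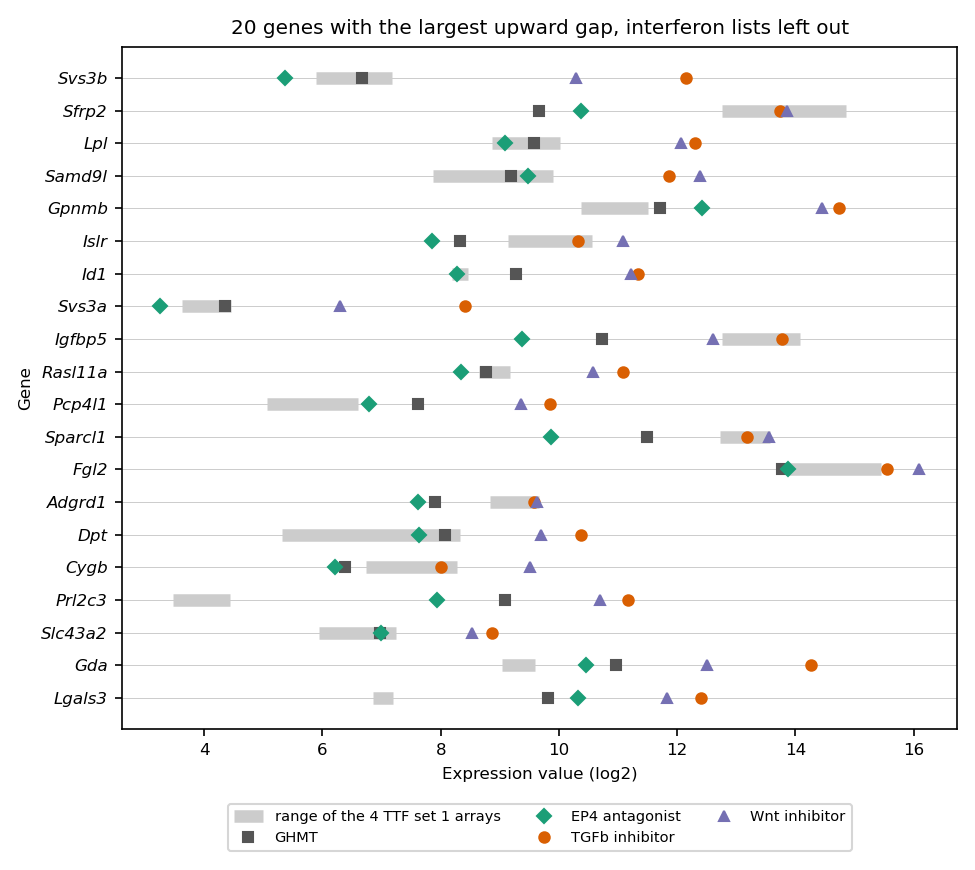
Log2 expression in the 4 TTFs-2 arrays (symbols) and the range over the 4 TTFs-1 arrays (grey bars) for the 20 named genes with the largest upward gap outside the interferon lists. Each gene's inhibitor arrays lie above its GHMT and EP4 antagonist arrays; for Sfrp2, Igfbp5 and Sparcl1 the TTFs-1 range lies at the inhibitor level.

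Sfrp2, a secreted protein that binds Wnt ligands, was the named call with the widest gap outside the interferon lists. It measured 9.67 with GHMT and 10.38 with the EP4 antagonist, against 13.74 with the TGFb inhibitor and 13.86 with the Wnt inhibitor. The inhibitor arrays were nearly equal and lay 3.36 above the higher of the others, a difference of 3.78 ± 0.28, or 13.7-fold (limma adjusted p = 0.011). In TTFs-1, where no culture had either inhibitor, Sfrp2 lay between 12.75 and 14.86, above GHMT and the EP4 antagonist of TTFs-2. Among 41 measured Wnt targets and antagonists it was the only call. Of the 41, 11 had both inhibitor arrays above both others (26.8%, against 18.2% of all clusters) and 4 below (9.76%, against 20.1%), with a median of 0.16. Its relatives Frzb and Sfrp5 had differences of 0.66 and 0.70 at levels of at most 5.58 and 5.17, at background.

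Lpl, the lipase that releases fatty acids from circulating lipoproteins, measured 9.57 and 9.08 against 12.30 and 12.07 in the same order of cultures. It rose 7.26-fold (difference 2.86 ± 0.25, limma adjusted p = 0.0191), and both inhibitor values lay above the TTFs-1 range of 8.87 to 10.02. Lpl led the 33 measured genes of the adipocyte programme, whose median was 0.31. Of these, 17 had both inhibitor arrays above both others (51.5%, against 18.2% of all clusters) and 3 below (9.09%, against 20.1%). Pparg, the master regulator of fat cells, measured 5.24 and 5.75, both at background, against 6.85 and 7.12, and Cebpa, its partner factor, 6.84 and 6.52 against 7.54 and 8.08. Neither passed the test (limma adjusted p = 0.15 and 0.304), and both were called by the 8-array fit, each at an adjusted p of 0.0493. The defining fat cell genes Adipoq and Plin1 stayed at background in all 4 arrays, with highest values of 4.11 and 3.80, although Adipoq was called by the 8-array fit (adjusted p = 0.0395), and the fatty acid carrier Fabp5 lay lower with the inhibitors, at 7.45 and 7.20 against 8.83 and 8.48. The summed level of the list was 15.61 with GHMT, 15.61 with the EP4 antagonist, 15.45 with the TGFb inhibitor and 15.72 with the Wnt inhibitor, so the groups overlapped.

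Gpnmb, a lysosome-associated glycoprotein of pigment cells and phagocytes, measured 11.71 and 12.42 against 14.73 and 14.45, a 5.76-fold rise (2.52 ± 0.29, limma adjusted p = 0.0491). Mitf, a transcription factor of pigment cells and of lysosomal genes, measured 7.52 and 7.99 against 9.60 and 9.13; it did not pass the test (adjusted p = 0.145 in limma) and was called by the 8-array fit (adjusted p = 0.0108). Lgals3, the carbohydrate-binding lectin galectin-3, showed the same order, 9.82 and 10.32 against 12.40 and 11.83, and was called by the 8-array fit (adjusted p = 0.00474). For all 3 genes the arms did not overlap, and all 4 TTFs-2 arrays, GHMT and the EP4 antagonist included, exceeded every TTFs-1 array. Phagocyte markers did not accompany them: of 33 measured macrophage and leukocyte genes, 0 were above background with GHMT, the EP4 antagonist or the TGFb inhibitor and 1 with the Wnt inhibitor, the list's summed level was 8.75 to 8.96, and Ptprc, Adgre1 and Itgam were at background in every array. Adgrd1, an adhesion G protein-coupled receptor, was the last named call, at 7.91 and 7.61 against 9.58 and 9.63 (1.84 ± 0.21, limma adjusted p = 0.0491), within the TTFs-1 range of 8.84 to 9.66.

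The Id genes, which encode inhibitors of basic helix-loop-helix factors and are classical targets of BMP signalling, lay higher with both inhibitors. Id1 measured 9.27 and 8.28 against 11.33 and 11.21, Id2 8.35 and 7.39 against 10.43 and 9.65, and Id3 6.61 and 6.22 against 8.48 and 7.75. None passed the test (limma adjusted p = 0.0861, 0.183 and 0.176), all 3 were called by the 8-array fit (adjusted p = 0.00396, 0.0323 and 0.0161), and the arms overlapped in none. Atoh8, another helix-loop-helix factor, was also called by the 8-array fit, with 5.96 and 5.65 against 8.45 and 7.28. Smad6, an inhibitory SMAD of the BMP branch, measured 6.62 and 5.48 against 7.32 and 7.38 and was not called in either fit. Among 50 measured TGFb and BMP pathway genes the median was -0.01. On each side 8 lay apart, shares under the 18.2% above and 20.1% below of all clusters. Grem1, a secreted BMP antagonist, was higher (14.24 and 14.72 against 16.01 and 15.67). Chrdl1, another, was lower (5.59 and 5.83 against 4.03 and 4.31). Both were called by the 8-array fit only.

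Several other higher genes encode extracellular proteins. Igfbp5, which binds insulin-like growth factors, measured 10.73 and 9.37 against 13.77 and 12.60, and Sparcl1, a matrix glycoprotein, 11.49 and 9.86 against 13.18 and 13.55. Both were called by the 8-array fit only (adjusted p = 0.0287 and 0.0276), and in both the EP4 antagonist array lay at least 1 below GHMT. Islr, a secreted leucine-rich protein of fibroblasts and mesenchymal stem cells, measured 8.33 and 7.86 against 10.33 and 11.08 and also passed in the 8-array fit (adjusted p = 0.0203). Dpt (dermatopontin, a small matrix protein of skin) measured 8.07 and 7.64 against 10.37 and 9.70 and passed in neither fit. Among 81 matrix glycoproteins and proteoglycans, 17 had both inhibitor arrays above both others, a share close to the 18.2% of all clusters. Another 9 lay below, a smaller share than the 20.1% of all clusters, and the median was 0.02.

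The largest difference outside the interferon lists belonged to Svs3b, a seminal vesicle secretory protein gene. It measured 6.67 with GHMT, 5.37 with the EP4 antagonist, 12.15 with the TGFb inhibitor and 10.29 with the Wnt inhibitor. Its relative Svs3a measured 4.36, 3.26, 8.41 and 6.29, at least 2.81-fold higher with the inhibitors. Neither passed the test (limma adjusted p = 0.0695 and 0.226) and both were called by the 8-array fit; because the genes are close relatives, signal of one may be read by probes of the other. The prolactin-family genes Prl2c2, Prl2c3 and Prl2c5 are similarly alike and were all called higher by the 8-array fit; Prl2c3 measured 9.08 and 7.94 against 11.16 and 10.69, while TTFs-1 lay between 3.48 and 4.43.

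Position against the TTFs-1 arrays varied among the 20 higher genes. In 14 of them both inhibitor arrays exceeded all 4 TTFs-1 arrays, as was also so for all 30 interferon genes that rose and for 4063 of all 22206 clusters. Both gene groups were chosen for high values in the inhibitor arrays, which favours these counts, so they are not a test. In 6 of them, Sfrp2, Islr, Igfbp5, Sparcl1, Adgrd1 and Cygb (cytoglobin, an oxygen-binding protein), it was the GHMT and EP4 antagonist arrays of TTFs-2 that lay below every TTFs-1 array, as in 7885 of all clusters, a similar share. Levels are set across sets here without knowing whether the authors normalized the sets together.

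Genes of the cell cycle lay lower with both inhibitors, and the mitosis list had the lowest median of the 44 lists. Of 74 measured mitosis genes, 61 had both inhibitor arrays below both others (82.4%, against 20.1% of all clusters) and 1, the centromeric histone Cenpa, above; the median was -0.79, being -0.88 with the TGFb inhibitor and -0.70 with the Wnt inhibitor against the mean of the other arrays. By limma on the 4 arrays 0 of the 74 were called and 48 were lower at an unadjusted p under 0.05, against 994 lower and 998 higher of all 22206 clusters, and 6 were called lower by the 8-array fit. Of 61 DNA replication genes, 37 lay below (60.7%) and 0 above, with a median of -0.46; 0 were called by limma on the 4 arrays, 18 were lower at an unadjusted p under 0.05, and 2, Brca1 and Rrm1, by the 8-array fit. The EP4 antagonist differed from GHMT by a median of -0.12 over the mitosis list and -0.28 over the replication list.

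**Figure D3:**
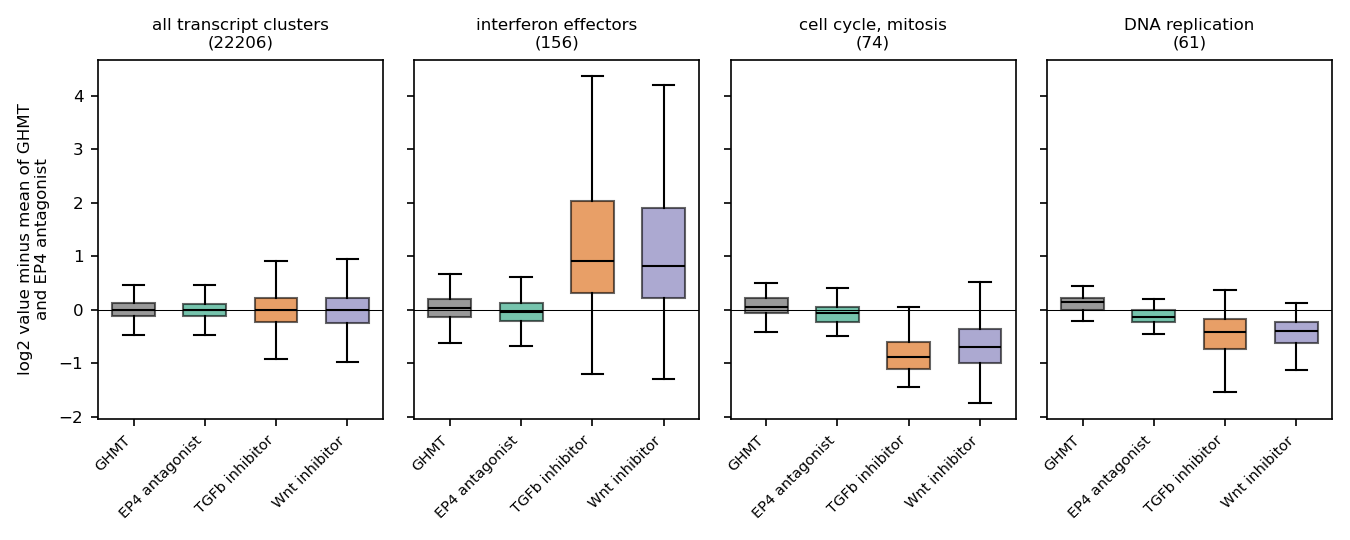
Distribution over genes of each TTFs-2 array's log2 value minus the mean of the GHMT and EP4 antagonist arrays, for all transcript clusters, interferon effectors, mitosis genes and DNA replication genes (numbers of clusters in brackets). Boxes span the quartiles with the median line, and whiskers follow the usual box-plot limit with outlying values not drawn; both inhibitor arrays lie below 0 for mitosis genes at the median.

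Cdk1, the kinase that drives entry into mitosis, measured 8.26 with GHMT and 8.39 with the EP4 antagonist, against 7.10 with the TGFb inhibitor and 6.93 with the Wnt inhibitor. The arms did not overlap (difference -1.31 ± 0.20; limma adjusted p = 0.124 on 4 arrays and 0.0453 in the 8-array fit). Birc5 (survivin, a subunit of the chromosomal passenger complex) measured 7.59 and 7.57 against 6.37 and 6.26 and was called in neither fit. Plk1, a mitotic kinase, had the largest difference of the list, -1.51, with 11.13 and 11.28 against 9.20 and 10.19. Rrm1, the large subunit of ribonucleotide reductase, measured 12.16 and 12.05 against 10.98 and 10.98 (adjusted p = 0.161 and 0.0254 in the 2 limma fits). Mki67, the proliferation marker, lay at 13.09 and 12.55 against 11.76 and 12.31, without overlap. Histone genes, which are on no list, were among the lower calls of the 8-array fit as well: H4c14, H4c3 and H2bc12 differed by -1.39, -1.28 and -1.13, although near-identical histone genes may share probes.

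The promoters of mitosis genes are known to carry CCAAT boxes, bound by NF-Y, near their start sites, and the letters CCAAT or their reverse complement occurred in 46 of the 62 promoters found for the list (74.2%), in 28 of 49 of the replication list (57.1%) and in 6617 of all 15691 (42.2%). They stood in 6 of 15 promoters of the 20 higher genes and in 9 of 15 of the 20 lower ones. Shown are Cdk1 (chr10:69352863-69353162 on the minus strand), with 3 matches in capitals, and Ube2c (chr2:164769679-164769978 on the plus strand), the ubiquitin-conjugating enzyme of the anaphase-promoting complex, with 6; the pair was chosen after values were seen.
Cdk1: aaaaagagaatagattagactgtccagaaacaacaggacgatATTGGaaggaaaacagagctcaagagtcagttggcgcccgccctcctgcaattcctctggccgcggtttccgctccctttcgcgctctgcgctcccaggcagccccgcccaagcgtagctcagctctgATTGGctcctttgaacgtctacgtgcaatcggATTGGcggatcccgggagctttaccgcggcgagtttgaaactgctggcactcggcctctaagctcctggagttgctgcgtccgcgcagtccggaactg
Ube2c: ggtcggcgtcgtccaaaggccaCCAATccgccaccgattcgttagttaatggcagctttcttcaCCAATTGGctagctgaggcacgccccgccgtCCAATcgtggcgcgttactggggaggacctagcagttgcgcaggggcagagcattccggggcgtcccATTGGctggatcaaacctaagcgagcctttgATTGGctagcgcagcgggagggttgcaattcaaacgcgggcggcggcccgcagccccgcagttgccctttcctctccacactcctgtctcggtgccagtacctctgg
Ube2c measured 10.45 and 10.68 against 9.37 and 9.08, so its arms were 1.08 apart.

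Among the 20 named genes with the largest downward gap, differences ran from -1.26 to -2.92; 0 were called on the 4 arrays by limma and 12 by the 8-array fit. All 20 had an unadjusted p under 0.05, which their choice by the gap on the same arrays fixes. That choice also favours the count of the 8-array fit, which called 0.153% of all clusters lower. The 20 included 3 genes of the cell cycle lists, Brca1, Birc5 and Cdk1. In 16 of the 20 the GHMT and EP4 antagonist arrays of TTFs-2 lay above all 4 TTFs-1 arrays, as in 4342 of all 22206 clusters. The genes were chosen for high values in those 2 arrays, which favours this count, so the comparison with all clusters is not a test. The inhibitor arrays lay below all 4 in 8 of the 20, close to the share over all clusters (7877 of 22206).

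**Figure D4:**
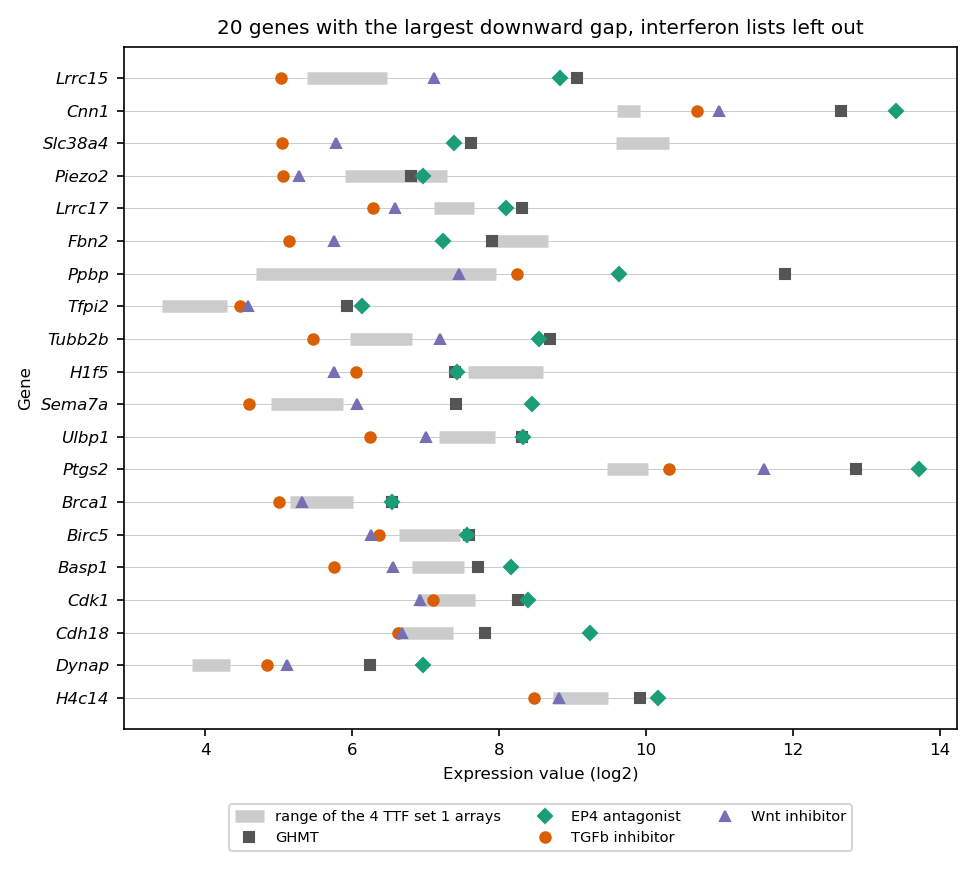
Log2 expression in the 4 TTFs-2 arrays (symbols) and the range over the 4 TTFs-1 arrays (grey bars) for the 20 named genes with the largest downward gap outside the interferon lists. Each gene's inhibitor arrays lie below its GHMT and EP4 antagonist arrays, and Cnn1 and Ptgs2 lie lower still in TTFs-1.

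Cnn1 (calponin, an actin-binding protein of smooth muscle) measured 12.66 with GHMT and 13.40 with the EP4 antagonist, against 10.70 with the TGFb inhibitor and 11.00 with the Wnt inhibitor. The difference was -2.18 ± 0.30 (limma adjusted p = 0.0852 on 4 arrays, 0.00397 in the 8-array fit), and TTFs-1 lay lower, at 9.61 to 9.92. Of 38 smooth muscle and actin cytoskeleton genes 12 had both inhibitor arrays below both others (31.6%, against 20.1% of all clusters), among them Actg2, Tagln and Pdlim3. Another 2 lay above (5.26%, against 18.2%), the median was -0.13, and Cnn1 was the only call of the 8-array fit. Acta2, smooth muscle actin itself, overlapped, at 18.36 and 18.56 against 18.32 and 18.52. Pdlim3, an actin-anchoring protein of the Z-line, was 14.86 and 14.73 against 10.23 with the TGFb inhibitor and 13.68 with the Wnt inhibitor, so the TGFb inhibitor array lay far below the Wnt inhibitor array. Lrrc15, a membrane protein of TGFb-activated fibroblasts, likewise measured 9.06 and 8.83 against 5.03 and 7.11 and passed in neither fit.

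Ptgs2 encodes cyclooxygenase-2, the inducible enzyme at the head of PGE2 synthesis and a target of diclofenac. It measured 12.86 with GHMT and 13.72 with the EP4 antagonist, against 10.32 with the TGFb inhibitor and 11.61 with the Wnt inhibitor, a 5.01-fold difference (-2.33 ± 0.48). It did not pass on the 4 arrays (limma adjusted p = 0.251) and was called by the 8-array fit (adjusted p = 0.0298); TTFs-1 lay at 9.47 to 10.03, below all 4. Downstream, Ptges, a PGE2 synthase, measured 9.99 and 9.62 against 10.96 and 10.42, and the EP4 receptor gene Ptger4 overlapped, at 7.49 and 7.35 against 7.25 and 7.69. Of the 25 prostanoid genes, 6 lay above, a share somewhat over the 18.2% of all clusters. Another 4 lay below, a share somewhat under the 20.1% of all clusters, and the median was 0.05.

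Smaller shifts in metabolic genes went the same way with both inhibitors. Of 33 genes of cholesterol and fatty acid synthesis and export, 16 lay below (48.5%, against 20.1% of all clusters) and 4 above (12.1%, against 18.2%). The median was -0.39. Mvd, an enzyme of the mevalonate pathway, measured 8.82 and 9.09 against 8.01 and 7.61 and was the only call of the 8-array fit. The cholesterol exporter Abca1 measured 8.68 and 7.88 against 10.11 and 9.24. Of 48 stress and unfolded protein response genes 26 lay below (54.2%) and 3 above (6.25%), with a median of -0.31. In either limma fit 0 were called, and 10 were lower at an unadjusted p under 0.05 (994 of all 22206 clusters). Psat1 of serine synthesis, for example, measured 13.44 and 13.84 against 12.80 and 12.69. Gstm1, a glutathione transferase, went the other way, 10.10 and 10.61 against 12.06 and 12.03, and was called by the 8-array fit (adjusted p = 0.012).

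**Figure D5:**
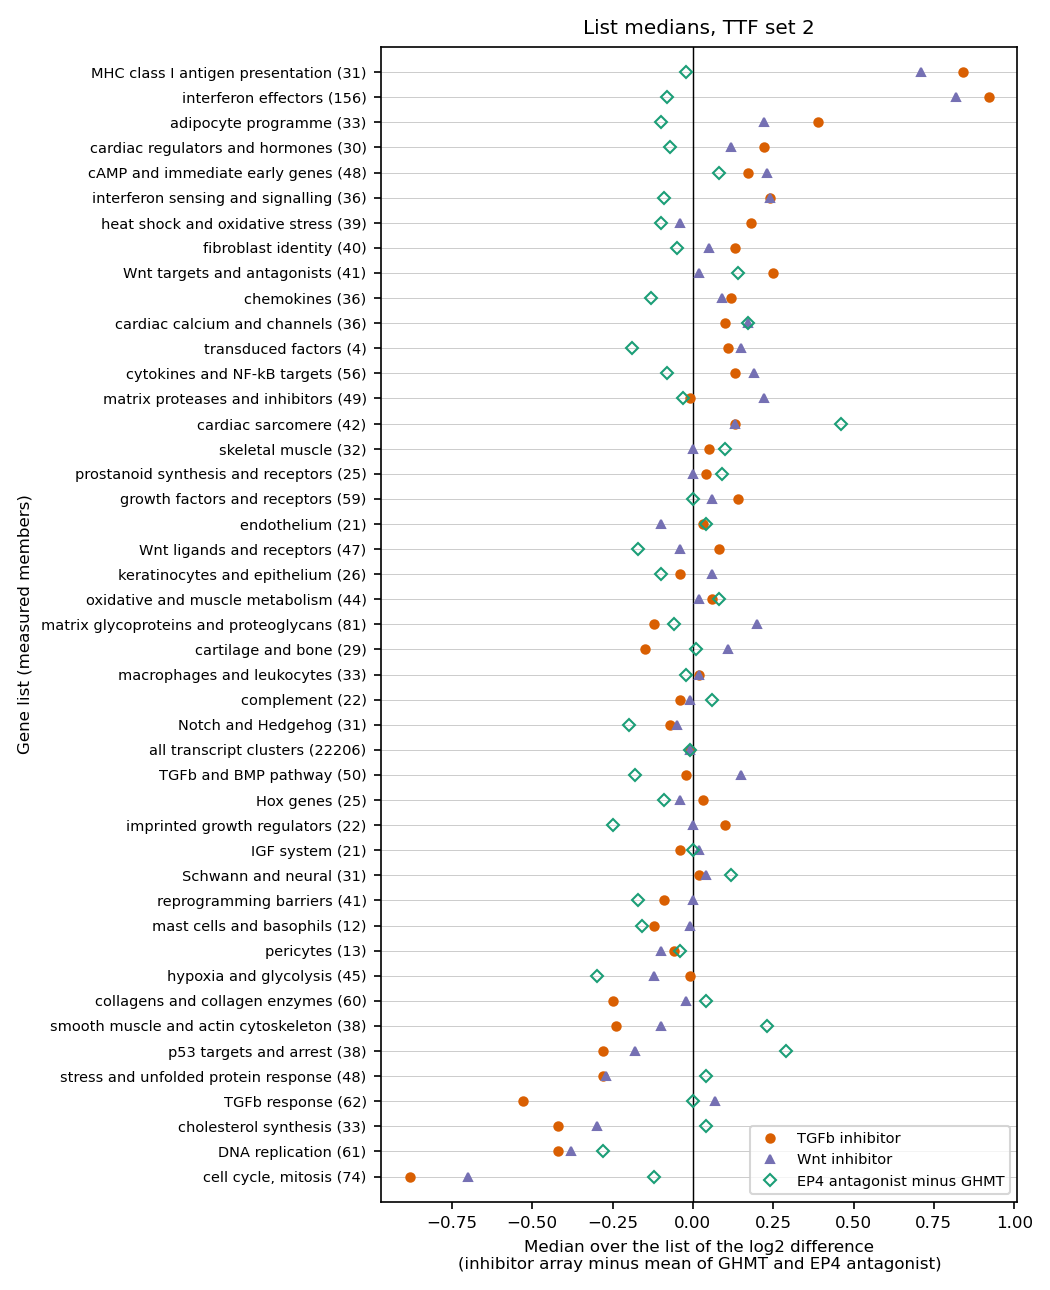
Median over each gene list of the log2 difference from the mean of GHMT and the EP4 antagonist, for the TGFb inhibitor (circles) and the Wnt inhibitor (triangles), with the EP4 antagonist minus GHMT (open diamonds) for scale; measured members are in brackets. Interferon effectors lie near 0.92 and 0.82 and mitosis genes near -0.88 and -0.70, while the TGFb response list is at -0.53 with the TGFb inhibitor and 0.07 with the Wnt inhibitor.

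Some pathway targets lay apart between the inhibitors themselves, a difference that 1 array each cannot test. Over 62 TGFb response genes the median was -0.53 with the TGFb inhibitor and 0.07 with the Wnt inhibitor. The list of 41 Wnt targets and antagonists was not lower with the Wnt inhibitor, with a median of 0.02 against 0.25 with the TGFb inhibitor. Pmepa1, a TGFb-induced feedback inhibitor, showed this in full: 14.07 and 14.05 against 10.19 with the TGFb inhibitor and 14.00 with the Wnt inhibitor. Smad7, an inhibitory SMAD, did not: it measured 6.02 and 6.01 against 6.13 with the TGFb inhibitor and 6.45 with the Wnt inhibitor. Postn (periostin) measured 11.28 and 11.53 against 8.64 and 10.90. Axin2, a feedback target of canonical Wnt signalling, measured 6.89 and 6.57 against 7.28 with the TGFb inhibitor and 4.44 with the Wnt inhibitor. The last was the lowest of the 4. Nkd1, another Wnt feedback gene, moved less, with 6.56 and 6.79 against 7.12 with the TGFb inhibitor and 6.44 with the Wnt inhibitor. Clusters that differed from GHMT by 2-fold or more were 630 higher and 560 lower with the TGFb inhibitor (5.36% of all clusters). They were 561 and 349 with the Wnt inhibitor (4.1%), and 286 and 323 with the EP4 antagonist (2.74%). Clusters with arms at least 2-fold apart are among those of each inhibitor by definition, so the inhibitor counts could not be smaller than that shared set. With 1 array each, these counts have no replicate check.

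Of the cardiac genes on 3 lists, 0 were called on the 4 arrays by limma, and the 8-array fit called 0 higher and 1 lower: Xirp2, an actin-binding protein of muscle, at background in all 4 arrays (difference -1.49, adjusted p = 0.0159). Of 42 sarcomere genes 12 lay above (28.6%, against 18.2% of all clusters) and 9 below (21.4%, against 20.1%), with a median of 0.12. At an unadjusted limma p under 0.05, 7 were higher and 3 lower (998 and 994 of all 22206 clusters). The 2 arrays of the other arm differed on this list, the EP4 antagonist from GHMT by a median of 0.46. By medians, the TGFb inhibitor differed by 0.23 from GHMT and by -0.18 from the EP4 antagonist. The Wnt inhibitor differed by 0.26 from GHMT and by -0.04 from the EP4 antagonist. Myl7, the atrial myosin light chain, measured 9.60 and 11.11 against 13.03 and 12.26, and Ryr2, the calcium release channel, 9.41 and 9.93 against 11.10 and 11.41; neither passed in either fit. Tnnt2, cardiac troponin T, was high throughout, at 17.25 and 17.50 against 17.51 and 17.85, and Actc1, cardiac actin, overlapped, at 11.64 and 14.39 against 13.24 and 14.66. The summed level of the 4 transduced factors was 18.26 with GHMT, 17.99 with the EP4 antagonist, 18.23 with the TGFb inhibitor and 18.36 with the Wnt inhibitor, so the arms overlapped. Mef2c, which lay close to that sum, measured 18.14 and 17.86 against 18.11 and 18.25, and Tbx5 14.34 and 14.25 against 14.40 and 14.34. Gata4 was at background in all 4. Hand2 measured 11.68 and 11.01 against 11.93 and 11.72, arms that lay 0.04 apart, and was called in neither fit.

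Fibroblast genes summed to 19.45 and 19.55 against 19.56 and 19.64, a narrow range without overlap, with Vim, Col1a1, Col1a2, Thy1 and Pdgfrb above background. Thy1, a surface marker of fibroblasts, measured 11.10 and 11.05 against 12.33 and 12.28 and passed in neither fit. The defining markers of endothelium (Pecam1, Cdh5), keratinocytes (Krt5, Krt14, Epcam), Schwann cells (Sox10) and cartilage (Col2a1, Acan) were at background everywhere. Summed levels of 3 other marker lists did not overlap between the arms. Pericyte markers summed to 13.52 and 13.87 against 15.72 and 14.73, with 6 of 13 above background in each array; Anpep, an aminopeptidase, measured 12.30 and 12.41 against 15.57 and 13.63, while Rgs5 and Notch3 were at background and the list's median difference was -0.08. Schwann and neural markers summed to 16.81 and 16.85 against 16.99 and 17.31, with 9 to 10 of 31 above background and a median of -0.05. That sum lay close to the level of Pmp22 alone, 16.51 and 16.44 against 16.91 and 17.09. Ncam1 of the same list was lower, at 14.17 and 14.45 against 10.60 and 13.70. Skeletal muscle markers summed to 18.18 and 17.89 against 18.28 and 18.28, with Myod1 and Myog at background. That sum lay close to the level of the transduced factor Mef2c alone, 18.14 and 17.86 against 18.11 and 18.25, which overlapped. Of the 32 genes, 1 had both inhibitor arrays above both others (3.12%, against 18.2% of all clusters) and 8 below (25.0%, against 20.1%). Mast cell and basophil markers varied without following the arms, with 12.33 with GHMT, 9.39 with the EP4 antagonist, 10.86 with the TGFb inhibitor and 10.09 with the Wnt inhibitor as summed levels, mainly from Mcpt8, with Cpa3 and Kit at background. In bulk RNA a change in the share of a cell type and a change in RNA per cell cannot be told apart, and the part of cell composition in any difference above was not tested.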

How the data were processed

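RNA from 8 cultures was measured on Clariom S Mouse arrays, 1 sample per array. The deposited log2 values were made by the authors with the SST-RMA algorithm of Affymetrix Expression Console 1.4, per the labels and design text; genome build: not given in the sources used here, nor whether both sets were normalized jointly. Of 28846 rows, 6640 control probe sets were left out, 22206 transcript clusters were kept, and 19572 had 1 gene symbol (2634 are unnamed here). Background was set for each array at the 95th percentile over 23 control probe sets designed for it (5.73 to 5.99), and 43.7% to 45.7% of clusters lay above it. When neither array of the lower arm exceeded background, the fold is a lower bound ("at least").

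The arms were compared with limma 3.58.1 in R 4.3.3, two-sided, on the 4 TTFs-2 arrays, after tests on simulated data. The labels do not say that cultures were independent, so the p-values reflect only how these samples vary, and the small number of arrays limits the precision. Results were recomputed with quantile normalization, a trended robust prior, a filter on dim clusters, 2 fits on all 8 arrays, leaving out each array, other gaps and leaving out dim list members. The members, the 44 gene lists (1816 of 1947 entries matched, 30 through a synonym) and the tests were chosen with earlier results of these data known. A list member on several clusters was taken at the brightest. Named were the 20 highest and 20 lowest genes by gap outside the 3 interferon lists with the higher arm above background, 6 highest and 2 lowest on them, up to 4 of each list, and a fixed set of pathway and cardiac genes. Isg15, Ifnb1, Zc3hav1, Id3, Atoh8, Smad6, Chrdl1, Prl2c2, Prl2c5, Frzb, Sfrp5, Cenpa, Plk1, H4c3, H2bc12, Pmepa1 and the markers of other cell types were named beyond this rule, the genes after their values were seen.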

Additional observations from a re-analysis of the deposited data

How the results depend on the processing

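The 43 calls became 40 with quantile normalization, 55 with a trended robust prior and 43 without dim clusters, and 40, 42 and 42 of the original calls were among them; the lower calls were 0, 2 and 1. With the replicate block, that is the fibroblast set as a term over all 8 arrays, 161 were called with the other 6 arrays as 1 arm (127 higher, 34 lower, 102 outside the interferon lists) and 129 with 1 coefficient per treatment (111, 18 and 81), sharing 41 and 38 with the 43. Leaving out 1 array at a time gave 0 to 0 calls in all of these counts by limma, and 357 to 710 clusters at least 2-fold apart in place of 194. That count was 8505 with any gap, 46 with a gap of 4-fold, 192 after quantile normalization and 177 without dim clusters. All 43 kept their sign in every fit that tested them. Their arms did not overlap, so leaving out 1 array could not change a sign. The 8-array fits keep the same differences, so the unchanged signs are not a test.

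Of 186 named genes none that passed the test changed sign, which arms without overlap fix when 1 array is left out. Uncalled differences that did, with 1 array left out at a time, ranged from -0.10 to 0.18 for Gata4, -2.15 to 0.47 for Tgfbi (0.24 without GHMT), -2.29 to 0.55 for Axin2, -0.24 to 0.44 for Nkd1 (-0.01 without GHMT), -0.39 to 2.67 for Myh6, -0.44 to 2.31 for Actc1, -0.14 to 0.06 for Acta2, -0.17 to 0.27 for Ptger4 (-0.02 without the EP4 antagonist) and -0.99 to 1.32 for Il6 (-0.14 without the Wnt inhibitor). The median of the mitosis list was -0.88 to -0.63 with 1 array left out. The cause of these changes was not tested. Differences between genes at background are limited by the signal there.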

Other observations

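Growth factor genes outside the groups above also differed in part. Of 59 measured growth factors and receptors, 18 had both inhibitor arrays above both others (30.5%, against 18.2% of all clusters). Another 10 lay below (16.9%, against 20.1%), the median was 0.04, and 0 were called in either limma fit. Nrg1 (neuregulin, a ligand of ERBB receptors) measured 8.24 with GHMT and 9.39 with the EP4 antagonist, against 10.42 with the TGFb inhibitor and 10.50 with the Wnt inhibitor, and Fgf7, a growth factor for epithelium, 10.24 and 9.84 against 11.64 and 11.21. Neither passed limma on the 4 arrays (adjusted p = 0.302 and 0.183). Of 22 complement genes 5 lay above (22.7%) and 3 below (13.6%), against the same 18.2% and 20.1% of all clusters. C1ra, a protease of the first complement component that is also on the interferon effector list, measured 6.72 and 6.62 against 8.39 and 8.15. It was called only by the 8-array limma fit (adjusted p = 0.00372). Igfbp4, which binds insulin-like growth factors, measured 12.34, 10.44, 13.76 and 13.98 in the same order of cultures, so the EP4 antagonist array stood lowest.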
